A study of Mus musculus with 4 samples.

Results

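Histone genes were described in FoxP3+ regulatory T cells of mice: the replication-dependent genes of linker histone H1 and of the core histones H2A, H2B and H4, with the replacement, germ cell and pseudogene members found by the same naming rule. A gene was a member when a probe of the array was annotated with exactly 1 gene symbol that started with H1f, H2ac, H2bc, H3c, H4c, H2az, H2af or H3f, or with the older Hist1h to Hist4h names. The rule found 32 genes on 33 probes, of 22180 genes measured by a probe with 1 symbol, and the brightest probe stood for a gene with several. Of the 32 members, 23 were replication-dependent genes, 3 were replacement variants, 5 are known for expression in germ cells and 1 was a pseudogene. No gene of histone H3 or H3.3 was a member, because every H3 probe was annotated with several symbols, and those probes are described separately.

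4 groups were compared, each measured on 1 Affymetrix Mouse Gene 2.0 ST array. Follicular regulatory T (TFR) cells were sorted as CD4+ cells that carried PD1, CXCR5 and the YFP reporter of FoxP3, and non-TFR cells as CD4+ YFP+ cells without CXCR5. Each population came from knockout mice, Prdm1fl/flFoxP3YFP-Cre, in which the Cre that FoxP3 drives deletes Prdm1 in FoxP3+ cells, and from control mice, FoxP3YFP-Cre, which carry the same Cre and YFP. All mice had been immunized 7 days earlier with NP-OVA, a hapten on ovalbumin, in CFA, complete Freund's adjuvant. The sources used here do not give the number, age or sex of the mice behind an array, nor the dates of sorting. With 1 array per group there is no replicate error, no test was made, and every difference compares these arrays. A fit of population and genotype without their interaction would take that interaction as its error, and it was not run. Values are log2 signals after quantile normalization, and a gene was called expressed when its mean over the 4 arrays was above the median of all genes, 5.91. As a sorted population is measured in bulk, fewer cells that express a gene and less RNA per cell cannot be told apart.

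Nucleosomes wrap DNA around an octamer of the core histones H2A, H2B, H3 and H4, and linker histone H1 binds where the DNA enters and leaves. Replication-dependent histone genes lie in clusters without introns, and their transcription and mRNA stability are tied to S phase, when new DNA must be packaged; their main mRNAs end in a stem-loop that SLBP binds in place of a poly(A) tail. Some genes of the clusters also make polyadenylated mRNA, also in cells that have stopped dividing, and replacement variants such as H2A.Z are made throughout the cell cycle. The genes of a class are close to identical in their coding sequence, so that the signal of a probe annotated with 1 gene can include transcripts of its relatives, and the assignment of each value to a gene is uncertain in that respect. PRDM1, also called Blimp-1, is a transcriptional repressor known for ending the cell cycle during plasma cell differentiation, and it is expressed in effector regulatory T cells.

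Of the members, 22 lie on chromosome 13, 6 on chromosome 3, 2 on chromosome 6 and 1 each on chromosomes 11 and 15. The RefSeq promoter table (GRCm38.p6) held 29 of the 32 members. 4 motifs known from histone promoters were searched on both strands in the 300 bases from 250 before to 50 after each annotated start, and a match was counted for each motif even where it overlapped another. The octamer ATTTGCAT, known from H2B promoters, was in 4 of 6 H2B promoters (H2bc3, H2bc12, H2bc14 and H2bc18) and in 2 of 5 H2A promoters (H2ac12 and H2ac20), against 1.74% of the 32851 promoters in the table. CCAAT was in all 5 H2A, all 6 H2B and all 4 replication-dependent H1 promoters but in 1 of 6 H4 promoters, against 37.4% of all promoters. The H1 box core AAACACA was in 3 of 4 H1 promoters, H1f2, H1f3 and H1f5, against 7.18% of all. It was also in 1 of 6 H2B promoters, H2bc14, and in 3 of 5 germ cell members, H1f6, H2ac1 and H2bc1. The octamer was in 2 of the 5 germ cell members, H2ac1 and H2bc1. TATAAA was in 16 of the 29 members, against 13.6% of all. These matches are descriptions of the sequence, and binding was not measured.

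**Figure D1:**
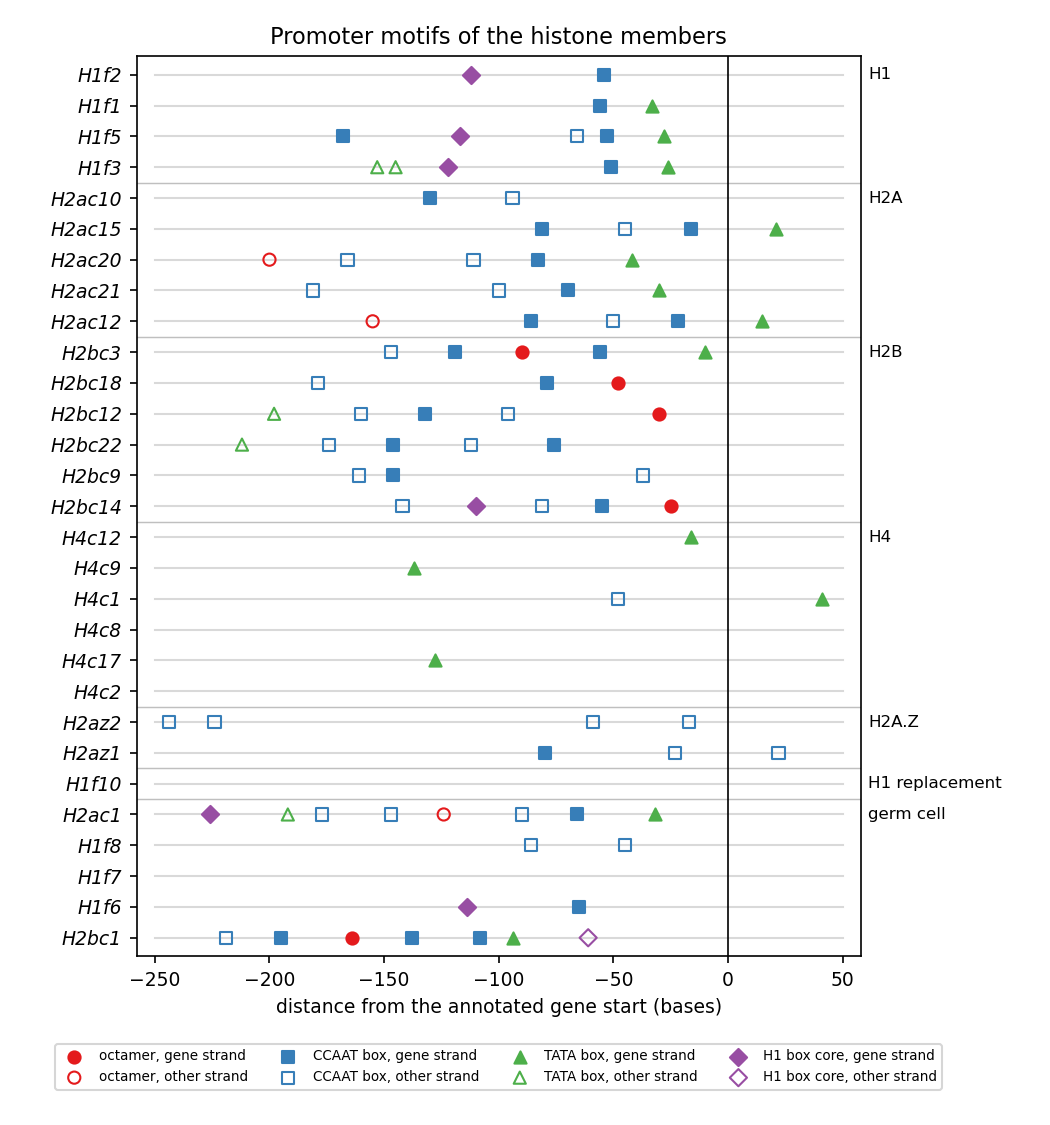
Matches to the 4 motifs in the promoters of 29 members, by distance from the annotated gene start (bases) and by class; filled symbols are on the gene's strand and open ones on the other. Octamers (red) are marked in 4 of 6 H2B promoters, and CCAAT (blue) in each H1, H2A and H2B promoter but in 1 of 6 H4 promoters.

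5 promoters are shown as the 200 bases before the annotated start, 5′ to 3′ on the gene's strand, with matches to the 4 motifs in capitals. H2bc3 (chr13:23746534-23746733, plus strand) and H2bc12 (chr13:22035621-22035820, plus strand) are the H2B genes with the widest difference between TFR and non-TFR cells, and their octamers begin 90 and 30 bases before the start. H1f5 (chr13:21780626-21780825, minus strand) and H1f2 (chr13:23738607-23738806, plus strand) both hold the H1 box, which begins 117 and 112 bases before the start, and a CCAAT at 53 and 54 bases, and their signals differed in opposite directions. H4c12 (chr13:21750554-21750753, minus strand) is an expressed H4 gene whose printed bases hold only TATAAA.
H2bc3: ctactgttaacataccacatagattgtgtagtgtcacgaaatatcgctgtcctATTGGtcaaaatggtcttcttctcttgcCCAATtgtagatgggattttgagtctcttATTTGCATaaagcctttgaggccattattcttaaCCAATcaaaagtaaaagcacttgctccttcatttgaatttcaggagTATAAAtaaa
H2bc12: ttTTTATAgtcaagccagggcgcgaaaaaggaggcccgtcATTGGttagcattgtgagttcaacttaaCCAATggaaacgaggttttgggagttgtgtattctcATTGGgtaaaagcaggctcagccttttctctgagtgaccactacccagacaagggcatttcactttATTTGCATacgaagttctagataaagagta
H1f5: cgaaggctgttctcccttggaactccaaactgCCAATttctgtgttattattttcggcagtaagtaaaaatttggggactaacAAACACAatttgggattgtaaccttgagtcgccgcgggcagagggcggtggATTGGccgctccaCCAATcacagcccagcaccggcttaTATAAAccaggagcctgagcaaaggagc
H1f2: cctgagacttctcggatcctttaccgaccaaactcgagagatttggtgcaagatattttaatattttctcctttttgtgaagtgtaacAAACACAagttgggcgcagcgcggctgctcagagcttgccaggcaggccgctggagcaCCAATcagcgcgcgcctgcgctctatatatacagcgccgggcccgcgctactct
H4c12: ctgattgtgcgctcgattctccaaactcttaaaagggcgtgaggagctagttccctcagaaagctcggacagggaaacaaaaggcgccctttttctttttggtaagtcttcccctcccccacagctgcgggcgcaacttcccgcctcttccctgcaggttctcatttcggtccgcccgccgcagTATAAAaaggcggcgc

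Across the members, higher signals in TFR cells were more frequent than across all genes. In control mice 23 of the 32 members were higher in TFR cells and 9 were lower, with a median difference of 0.52, where 51.7% of all genes were higher, 48.3% were lower and the median was 0.01. A difference of at least 2-fold was seen in 9 members with the higher and 3 with the lower signal in TFR cells, and such differences made up 2.69% and 1.18% of the 22180 genes. In knockout mice 22 members were higher and 10 lower, with a median of 0.28, where 50.0% of all genes lay on each side. In those mice 8 members were at least 2-fold higher and 1 lower, against 2.23% and 1.18% of all genes. Among the 14 expressed members, 6 were at least 2-fold higher and 1 lower in control TFR cells, against 4.13% and 1.36% of the 11090 expressed genes, and in knockout mice 5 were higher and 1 lower, against 3.03% and 1.37%. The limit is on the mean of all arrays, so some of these members passed through their signal in the population where they were high. The difference had 1 sign under all 5 normalizations tried for each of the 14 expressed members, in either genotype.

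**Figure D2:**
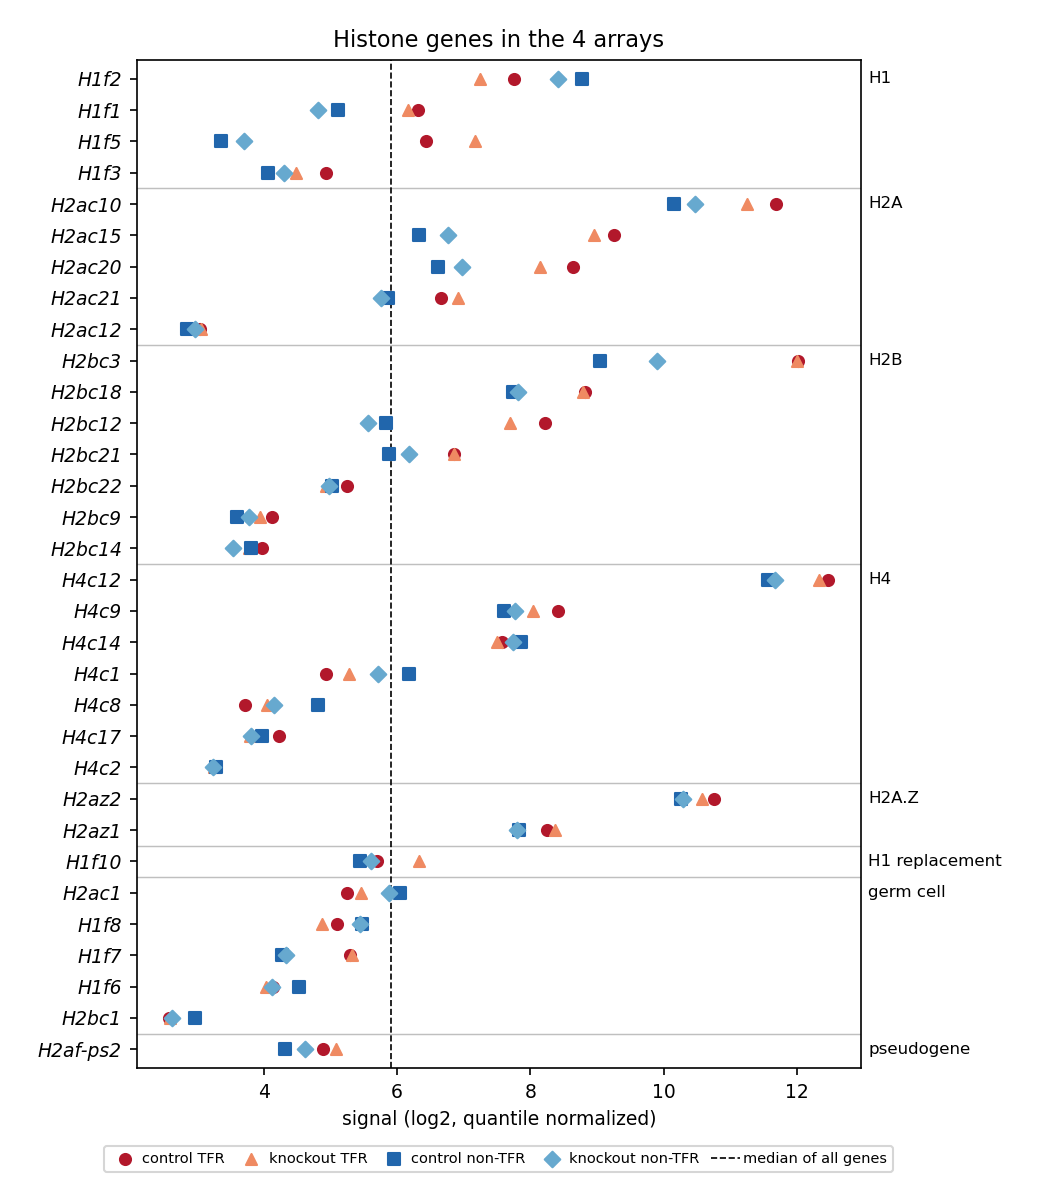
Signal of each of the 32 members (log2, quantile normalized) in the 4 arrays, by histone class; the dashed line is the median of all genes, 5.91. Red and orange TFR symbols lie to the right of the blue non-TFR symbols for the expressed H2A and H2B genes and to the left for H1f2.

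The H2B genes, whose product pairs with H2A in the nucleosome, included 4 expressed members. H2bc3 had signals of 12.018 and 12.002 in control and knockout TFR cells, against 9.05 and 9.90 in control and knockout non-TFR cells. The TFR signal was 7.81-fold higher in control and 4.31-fold higher in knockout mice, and the genotypes were level in TFR cells. H2bc12 measured 8.23 and 7.69 in control and knockout TFR cells, against 5.84 and 5.57 in non-TFR cells, which lie below the median of all genes, so that its differences of 2.38 and 2.12 are given without a fold. H2bc18 measured 8.83 and 8.80 in TFR cells and 7.74 and 7.82 in non-TFR cells, or 2.13-fold and 1.96-fold higher in control and knockout mice. H2bc21 was at 6.85 in both TFR arrays, 5.88 and 6.18 in non-TFR cells, with a difference of 0.98 in control and 0.67 in knockout mice. All 4 had higher signals on both TFR arrays than on both non-TFR arrays. H2bc12 passed the expression limit only through its TFR signal, and H2bc21 was below the limit in control non-TFR cells, so the limit itself favours that order for these genes. The other 3, H2bc9, H2bc14 and H2bc22, were not expressed and differed by at most 0.54.

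The expressed H2A members were ordered in the same way. H2ac15 had signals of 9.26 and 8.95 in control and knockout TFR cells, against 6.34 and 6.77 in non-TFR cells, which is 7.58-fold higher in control and 4.54-fold higher in knockout mice. H2ac20 measured 8.64 and 8.15 in TFR cells and 6.62 and 6.97 in non-TFR cells, or 4.07-fold and 2.27-fold higher. H2ac10 measured 11.68 and 11.24 in TFR cells and 10.15 and 10.47 in non-TFR cells, or 2.90-fold and 1.71-fold higher. In all 3 genes both TFR arrays were above both non-TFR arrays, and the gap was wider in control than in knockout mice. H2ac21 was at 6.67 and 6.92 in TFR cells against 5.87 and 5.76 in non-TFR cells, a difference of 0.80 in control and 1.16 in knockout mice, and passed the expression limit only through its TFR signal. Its other, dimmer probe stayed below the median of all genes on each array and differed by -0.20 and -0.22, so the probes of H2ac21 disagree in direction. H2ac12, which was not expressed, was between 2.85 and 3.06 on the 4 arrays. All 12 replication-dependent H2A and H2B members, expressed or not, were higher in TFR cells in control mice, with a median difference of 1.03. In knockout mice 11 of 12 were, with a median of 0.87. Of all genes 51.7% and 50.0% were higher in TFR cells in control and knockout mice. H2ac12, H2bc9, H2bc14 and H2bc22, counted among the 12, were below the limit on each array, so their signs carry little weight. The germ cell members H2ac1 and H2bc1, not expressed, were lower by -0.79 and -0.39 in control and -0.42 and -0.04 in knockout mice, which makes 12 of 14 and 11 of 14.

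**Figure D3:**
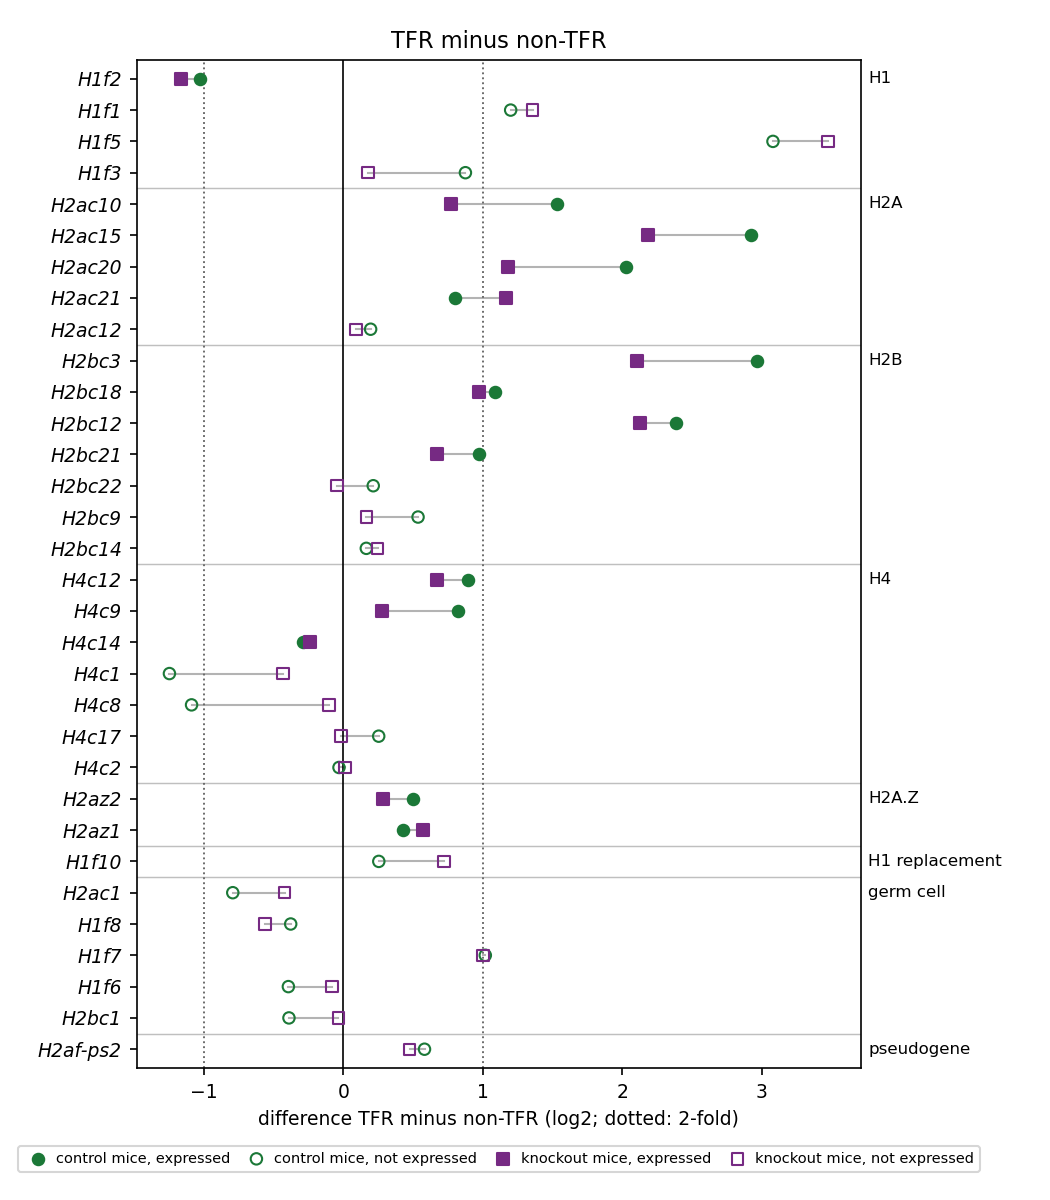
Difference between TFR and non-TFR cells (log2) for each member in control and knockout mice, by class; filled symbols are expressed members and dotted lines mark 2-fold. H2A and H2B genes lie to the right of 0, except H2bc22 at -0.05 in knockout mice, and H1f2, H4c1, H4c8, H4c14 and the germ cell members H1f6, H1f8, H2ac1 and H2bc1 lie to the left in both genotypes.

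Histone H4 genes, whose product pairs with H3, differed in both directions, and 2 of the 3 expressed ones had both TFR arrays above both non-TFR arrays. H4c12 measured 12.47 and 12.34 in control and knockout TFR cells and 11.57 and 11.67 in non-TFR cells, or 1.86-fold and 1.59-fold higher. H4c9 measured 8.42 and 8.05 in TFR cells and 7.60 and 7.77 in non-TFR cells, or 1.76-fold and 1.21-fold higher. H4c14 had the opposite order, at 7.57 and 7.51 in TFR cells and 7.87 and 7.75 in non-TFR cells, differences of -0.29 and -0.24. No H4 gene that was expressed reached a 2-fold difference between the populations. Of the 4 that were not expressed, H4c1 was at 4.94 and 5.28 in TFR cells against 6.19 and 5.72 in non-TFR cells, and H4c8 at 3.73 and 4.06 against 4.82 and 4.16. The median over the 7 H4 genes was -0.03 in control and -0.02 in knockout mice, against 1.53 and 1.16 over the 5 H2A genes and 0.98 and 0.67 over the 7 H2B genes. Over the 3 expressed H4 genes it was 0.82 and 0.27.

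Linker histone genes differed in both directions. H1f2 was the only expressed linker member and the expressed member with the lowest TFR signal relative to non-TFR cells, at 7.75 and 7.25 in control and knockout TFR cells against 8.78 and 8.41 in non-TFR cells. That is 2.04-fold lower in control and 2.24-fold lower in knockout mice. On the values as deposited the difference in control mice was -0.92, short of 2-fold. H1f5 showed the widest difference of any member, at 6.44 and 7.18 in TFR cells against 3.36 and 3.70 in non-TFR cells, or 3.08 and 3.47, with the non-TFR signals below the median of all genes. H1f1 was at 6.32 and 6.17 in TFR cells and 5.12 and 4.81 in non-TFR cells. H1f3 was below the median of all genes on each array, with differences of 0.88 and 0.18. The linker genes H1f2 and H1f5 had opposite orders, and both promoters hold the H1 box and CCAAT shown above. The exact match TATAAA is in the H1f5 promoter and not in that of H1f2, whose printed bases hold tatatata, which the search did not count. The part of these motifs in the signals was not tested.

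Neighbouring genes in the RefSeq order were read side by side. All 4 pairs of expressed neighbours, H2ac21 with H2ac20, H2ac20 with H2bc21, H4c12 with H2ac15 and H2bc12 with H4c9, were higher in TFR cells in both genotypes. Of the 14 expressed members 12 were higher in TFR cells in each genotype, so the shared order of the pairs largely repeats that of the members. H2ac20 is shared between pairs, and H2ac21 and H2bc12 passed the expression limit only through their TFR signal. The sizes differed within a pair, as in H4c12 and H2ac15, at 0.90 and 2.92 in control mice. H4c8, which was below the limit on each array, and its neighbour H2ac10 differed by -1.09 and 1.53.

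The replacement variants, 2 genes of H2A.Z and H1f10, were higher in TFR cells in both genotypes and none reached 2-fold. H2az1, 1 of the H2A.Z genes, whose product marks promoters and other regulatory DNA, measured 8.25 and 8.37 in control and knockout TFR cells and 7.82 and 7.80 in non-TFR cells, or 1.35-fold and 1.48-fold higher. H2az2, the other H2A.Z gene, measured 10.76 and 10.57 against 10.26 and 10.29, or 1.42-fold and 1.22-fold higher. H1f10, a linker variant that is not tied to replication, was not expressed by the limit used, with signals between 5.44 and 6.33, the highest in knockout TFR cells, and differences of 0.25 in control and 0.72 in knockout mice. None of the 5 germ cell members was expressed, and the pseudogene H2af-ps2 was not expressed either.

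Knockout and control cells were then compared within each population, to describe histone genes in mice whose labels give a deletion of Prdm1 in FoxP3+ cells. In TFR cells 12 of the 32 members were higher in the knockout and 20 lower, with a median of -0.08, where 52.4% of all genes were higher, 47.6% were lower and the median was 0.01. In non-TFR cells 16 were higher and 16 lower, with a median of 0.00, against 56.1% higher, 43.8% lower and a median of 0.03 over all genes. No member reached a 2-fold difference between genotypes in either population, and such differences were also rare over all genes, at 0.289% higher and 0.162% lower in TFR cells and 0.433% higher and 0.0766% lower in non-TFR cells. Over expressed genes the shares were 0.442% higher and 0.234% lower in TFR cells and 0.775% higher and 0.126% lower in non-TFR cells. Among the 12 expressed replication-dependent members, 11 were lower in the TFR cells of knockout mice, with a median of -0.22, and 8 were higher in their non-TFR cells, with a median of 0.13. Expressed genes lay below 0 in 46.1% of cases in TFR cells and above 0 in 55.7% in non-TFR cells. Under the 5 normalizations each of the 14 expressed members kept 1 sign in non-TFR cells and 13 of 14 did in TFR cells. The exception was H2bc21, from -0.04 to 0.01.

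**Figure D4:**
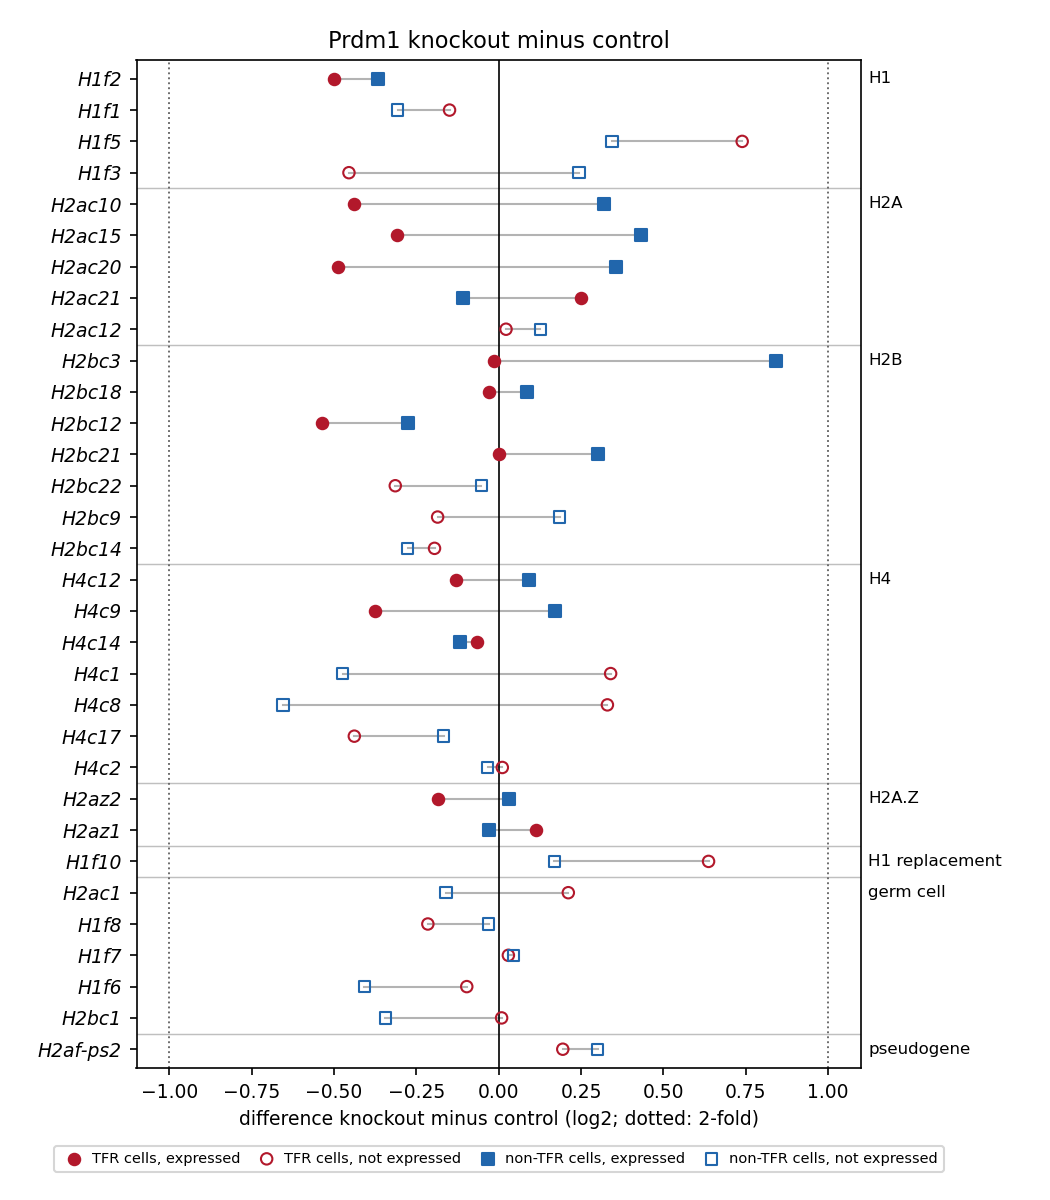
Difference between knockout and control (log2) for each member in TFR cells (circles) and non-TFR cells (squares); filled symbols are expressed members and dotted lines mark 2-fold, which no member reaches. H2ac10, H2ac15 and H2ac20 lie below 0 in TFR cells and above 0 in non-TFR cells, and H2bc3 has the highest non-TFR value, 0.84.

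Among expressed members the genotype differences reached -0.54 in TFR and 0.84 in non-TFR cells, both in H2B genes. In TFR cells the lowest expressed member was H2bc12, at -0.54, or 1.45-fold lower in the knockout, followed by H1f2 at -0.50, H2ac20 at -0.49 and H2ac10 at -0.44. The highest expressed member was H2ac21, at 0.25, while H1f5 and H1f10, not expressed by their mean, were at 0.74 and 0.64. In non-TFR cells the highest was H2bc3, at 0.84, or 1.79-fold higher in the knockout, followed by H2ac15 at 0.43, H2ac20 at 0.36 and H2ac10 at 0.32, and the lowest was H1f2 at -0.37. Of those not expressed, H4c8 and H4c1 were at -0.65 and -0.47 in non-TFR cells. For H2ac10, H2ac15 and H2ac20, the knockout signal was thus lower than control in TFR cells and higher in non-TFR cells. The TFR minus non-TFR difference was accordingly lower in knockout than in control mice, by a median of -0.74 over the 5 H2A genes and -0.26 over the 7 H2B genes, against 0.04 over the 7 H4 genes, which was -0.22 over the 3 that were expressed. Among expressed members it was lower in knockout mice in 11 of 14, H1f2 included, whose difference was further below 0, against 52.4% of all expressed genes. The population and genotype differences use the same 4 arrays, so these are readings of the same values and not separate evidence.

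H2A, H2B and H3 genes that the rule left out share probes with others, and their probes gave further values. 45 probes were annotated with several symbols of which at least 1 was a histone gene, 30 of them with only names in the rule, and 3 pairs of these probes held identical values. In control mice 23 of the 45 were higher in TFR cells and 22 lower, with a median of 0.00, where 51.7% of all genes were higher. In knockout mice 26 were higher and 19 lower, with a median of 0.08, where 50.0% of all genes were higher. Of the 27 expressed probes, 6 in control and 5 in knockout mice were at least 2-fold higher in TFR cells, against 4.13% and 3.03% of expressed genes. Lower by 2-fold was 1 in each, against 1.36% and 1.37%. The probes counted as higher include both of an H2A pair with identical values. A probe annotated with 12 symbols, 11 of them names in the rule and led by H2bc6, measured 12.41 and 12.16 in control and knockout TFR cells. In non-TFR cells it measured 10.35 and 10.81, a difference of 2.06 in control and 1.36 in knockout mice. A probe of 4 H2B genes, H2bc13 among them, measured 12.67 and 12.05 against 10.46 and 10.85, or 2.21 and 1.19. Both repeat the order of H2bc3, but their sequence may overlap with it. A probe with H2ac4 as the first of 10 symbols had the widest difference, at 8.68 and 9.56 in TFR cells against 4.27 and 6.18 in non-TFR cells.

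2 of 7 expressed H2B probes with several symbols were lower in TFR cells in both genotypes. The wider differences were those of a probe annotated with H2bc4, H2bc6 and H2bc8, which measured 7.43 and 5.84 in control and knockout TFR cells and 8.12 and 7.03 in non-TFR cells. Its signal was lower in TFR than in non-TFR cells in both genotypes, by differences of -0.70 and -1.19, and lower in the knockout in both populations, by -1.59 and -1.10. Another probe with the same 3 symbols, in another order, measured 8.85 and 8.67 in TFR cells against 8.18 and 8.20 in non-TFR cells, so probes of these H2B genes disagree. The other, annotated with H2bc7, H2bc11, H2bc13 and H2bc15, differed by -0.13 in control and -0.30 in knockout mice. The 12 probes led by a replication-dependent H3 gene, 4 of them expressed, had a median difference between TFR and non-TFR cells of -0.02 in control and -0.10 in knockout mice, and the 4 expressed ones had medians of -0.24 and -0.51. Of the 4 expressed ones, 3 were lower and 1 was higher in TFR cells in each genotype. 1 of the lower ones, annotated with 8 H3 genes, measured 7.72 and 7.89 in TFR cells and 8.95 and 8.70 in non-TFR cells. The higher one, annotated with 4 H3 genes led by H3c10, differed by 0.82 in control and 0.18 in knockout mice. It was below the limit in control non-TFR cells. The 7 probes of H3.3, the H3 variant laid down outside S phase, were all expressed and differed by between -0.36 and 0.08 in control mice.

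**Figure D5:**
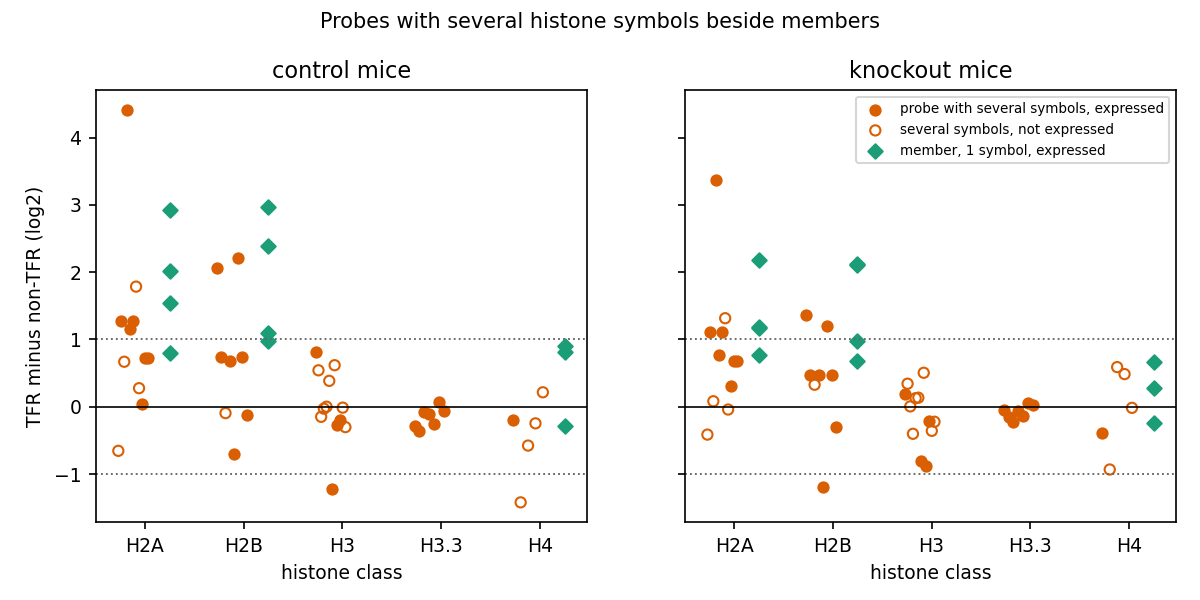
Difference between TFR and non-TFR cells (log2) by histone class in control and knockout mice, for probes annotated with several histone symbols (circles, filled where expressed) and for expressed members with 1 symbol (diamonds). The probe of 10 H2A symbols led by H2ac4 reaches 4.42 and 3.38, while H3.3 probes lie between -0.36 and 0.08.

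11 further histone genes with 1 symbol carry current names outside the rule, and they were added after their values were seen. H2ax, whose product is phosphorylated at DNA breaks, measured 12.25 in both TFR arrays, 11.27 and 11.66 in non-TFR cells. H4f16 measured 9.65 and 9.09 in TFR cells against 7.96 and 7.90 in non-TFR cells, differences of 1.70 and 1.20, wider than those of the H4 members. Macroh2a1, a variant linked to silent chromatin, was lower in TFR cells, by -0.30 and -0.26. The expressed H2A genes H2aw and H2aj were also lower in TFR cells, unlike the expressed H2A members. H2aw differed by -1.31 in control and -0.45 in knockout mice, and H2aj by -0.52 and -0.50.

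Genes that make, carry or place histones were set beside the members. The 12 genes for histone mRNA supply act in transcription, 3′ end processing and decay of histone mRNA. Of these, 8 had the higher signal in TFR cells in control and 9 in knockout mice, against 51.7% and 50.0% of all genes. Their medians were 0.19 and 0.21, and none differed by 2-fold. Slbp, the stem-loop binding protein, had the highest difference, at 9.88 and 10.05 in control and knockout TFR cells against 9.17 and 9.40 in non-TFR cells, or 1.64-fold and 1.57-fold higher. Npat, the coactivator of replication-dependent histone genes, was 1.40-fold and 1.17-fold higher, and Eri1, an exonuclease that trims histone mRNA, was 1.54-fold and 1.41-fold higher. Of 20 histone chaperones and carriers, all expressed, 18 were higher in TFR cells in each genotype, with medians of 0.34 and 0.31. Of all expressed genes 52.4% were higher in TFR cells in control and 51.6% in knockout mice. Asf1b, an H3-H4 chaperone of dividing cells, measured 10.22 and 10.18 in TFR cells against 7.71 and 8.48 in non-TFR cells, or 5.70-fold and 3.24-fold higher. Chaf1a, the large subunit of the replication-coupled assembly factor CAF-1, differed by 2.00 and 1.59, and its partner Chaf1b was 1.91-fold and 1.56-fold higher. Cenpa, the H3 variant of centromeres, measured 9.28 and 9.19 in TFR cells against 8.96 and 8.97 in non-TFR cells. Between genotypes 11 of the 20 chaperones were higher in the TFR cells of knockout mice, close to the share of expressed genes, 53.8%. In knockout non-TFR cells 15 were higher, against 55.7% of expressed genes, and Asf1b was 1.71-fold higher.

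S phase genes had the same order as the expressed H2A and H2B members. All 16 measured S phase and proliferation genes had the higher signal in TFR cells in both genotypes, against 52.4% and 51.6% of expressed genes. Their median was 1.497 in control and 1.09 in knockout mice, and 12 and 10 of them were at least 2-fold higher. Such differences made up 4.13% and 3.03% of expressed genes. Between genotypes 8 of the 16 were higher and 8 lower in knockout TFR cells, with a median of 0.02, where 53.8% of expressed genes were higher. In the non-TFR cells of knockout mice 15 of 16 were higher, with a median of 0.39, against 55.7% of expressed genes. Of the 16, 3 were at least 2-fold higher there, against 0.775% of expressed genes: Ccna2 by 1.65, Mki67 by 1.34 and Top2a by 1.12. The part of the S phase genes in the histone differences was not tested.

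The arrays were checked against their labels and for other cells. Prdm1 measured 8.21 in control and 7.32 in knockout TFR cells, and 7.80 and 7.59 in non-TFR cells. The difference between genotypes was thus -0.89 in TFR cells and -0.21 in non-TFR cells. All 7 regulatory T cell markers were above the median of all genes on each array. Of the 7, 4 were higher in TFR cells in each genotype, with medians of 0.05 and 0.01, against 52.4% and 51.6% of expressed genes. Foxp3 differed between TFR and non-TFR cells by -0.09 in control and -0.55 in knockout mice, and Il2ra by -0.49 and -1.23. Ikzf2 was higher in TFR cells, by 0.70 and 0.37. The gate genes Cxcr5, Pdcd1 and Bcl6 were higher in TFR cells, by 1.46, 2.41 and 0.98 in control and by 1.49, 1.72 and 1.84 in knockout mice. Of 7 measured B cell markers 2 were expressed by their mean, Cd79b and Cd22, and Pax5 and Blk were also above the limit in knockout TFR cells, at 6.10 and 6.11. In each genotype 4 of the 7 were lower in TFR cells, with medians of -0.06 and -0.09, where 48.3% and 50.0% of all genes were lower. The log2 of the summed signal of all 7, to which bright markers such as Cd22 add most, was 9.69 and 10.14 in control and knockout TFR cells. In non-TFR cells it was 8.97 and 9.30. Cd22 measured 8.27 and 9.27 in TFR cells against 5.99 and 7.04 in non-TFR cells, and Ms4a1 was between 3.98 and 4.12 on each array. Of 4 markers of germinal centre B cells, S1pr2 was expressed and Mybl1, below the limit on each array, was higher in TFR cells by 1.85 and 1.29. Gcsam and Rgs13 were also below the limit on each array. Gcsam differed by 0.26 in control and -0.20 in knockout mice, and Rgs13 by 0.14 and 0.29. Of 3 plasma cell markers none was expressed by its mean, but Sdc1 measured 6.07 and 6.38 in TFR cells against 5.28 and 5.56 in non-TFR cells. Jchain and Tnfrsf17 were below the limit on each array. Jchain differed by 0.12 in control and -0.68 in knockout mice, and Tnfrsf17 by 0.04 and 0.15. None of 7 myeloid markers was above the limit on any array, and no red cell marker was measured. Cd8b1, 1 of 2 CD8 T cell markers, was at 8.73 in both TFR arrays and 9.42 and 9.29 in non-TFR cells. The part of these genes in the histone differences was not tested. As deposited, the array medians spanned 0.105, and the median of all genes differed by 0.11 between TFR and non-TFR cells in control mice and by 0.12 in knockout mice.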

How the data were processed

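RNA from 4 sorted populations had been hybridized to 1 array each. The deposited log2 signals were processed with MAS5 per the submitters' processing notes, for which no version or probe build was stated. That the scale is log2 was inferred from the values, which the notes do not state. The table held 41345 probes, of which 23521 had 1 symbol in the platform annotation, 1814 had several and 16010 were unnamed and not used for genes. Quantile normalization of the 4 arrays, over the whole table, used limma 3.58.1 (R 4.3.3). The brightest probe stood for each gene, and differences between arrays were taken with pandas 2.3.3. Medians of a list cover all measured genes and counts of 2-fold differences cover expressed genes unless all genes are named. No fold is given where the dimmer signal is below 5.91.

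Alternatives were the values as deposited, centring on the 75th percentile, cyclic loess, quantile normalization of named probes, other expression limits and member sets, and a limit of 1.5-fold. The counting was tested on simulated data. The members and lists were chosen with earlier results of these data known. Named were expressed members (up to 8 of each class by mean), the highest and lowest in each comparison, and expressed replacement variants. Members and genes named beyond this rule, and all values of shared probes, were chosen after their values were seen. Promoter sequences come from RefSeq.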

Additional observations from a re-analysis of the deposited data

Results flagged for a closer look

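5 expressed members had a knockout minus control difference that was lower than 0 in TFR cells and higher than 0 in non-TFR cells, with a gap between the populations above 0.5 on the log2 scale. Of all expressed genes 4.37% met the same rule in this direction, and 2.72% in the other, which no expressed member did. With 1 array in each group, this difference was not tested. The gap was 0.86 for H2bc3, from -0.02 in TFR to 0.84 in non-TFR cells. It was 0.84 for H2ac20, from -0.49 to 0.36, and 0.76 for H2ac10, from -0.44 to 0.32. H2ac15 had a gap of 0.74, from -0.31 to 0.43, and H4c9 a gap of 0.54, from -0.37 to 0.17.

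Probes annotated with several histone symbols lie outside the member comparisons, and 5 of the 27 expressed ones were at least 2-fold higher in the TFR cells of both genotypes, as were 2.33% of expressed genes. The probe of 10 symbols led by H2ac4 differed by 4.42 in control and 3.38 in knockout mice. The H2B probe of 4 symbols differed by 2.21 and 1.19, and the H2B probe of 12 symbols by 2.06 and 1.36. 1 expressed shared probe in each genotype was at least 2-fold lower, against 1.36% and 1.37% of expressed genes. 2 H2A probes with identical values, both counted among the 5, differed by 1.28 in control and 1.11 in knockout mice.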

How the results depend on the processing

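No paired analysis was possible because each group has 1 array. Of the alternative values, 128 summary values were the same within the limits used, 23 moved and 2 reversed, and of those of single genes 221 were the same and 3 moved. In control mice the median TFR minus non-TFR difference, 0.52, was 0.90 over members above the 75th percentile, 0.94 over expressed members, 0.82 over replication-dependent genes and 0.41 with shared probes added. Of 14 expressed members, 6 were at least 2-fold higher. That count became 3 of 7 above the 75th percentile, 11 of 31 with shared probes and 10 of 14 at 1.5-fold. The 1 of 14 at least 2-fold lower became 0 of 14 as deposited and 3 of 32 without the expression limit. It became 2 of 31 with shared probes and 2 of 22 with members by older symbols, an alternative chosen after seeing the data. In knockout mice the median, 0.28, was 0.40 as deposited, 0.67 above the 75th percentile and 0.72 over expressed members. The 5 of 14 higher became 1 of 7 above the 75th percentile and 8 of 32 without the limit. They became 9 of 31 with shared probes and 9 of 14 at 1.5-fold. The 1 of 14 lower became 2 of 31 with shared probes. The shares of all genes above the 75th percentile and at 1.5-fold were not counted. Between genotypes no member was 2-fold apart. With shared probes 1 of 31 was lower in TFR cells, and 1 higher and 1 lower in non-TFR cells. At 1.5-fold 1 of 14 was higher in non-TFR cells. The difference between genotypes of the population difference turned from 0.01 to -0.13 for H1 and from 0.04 to -0.22 for H4 over expressed members, 1 and 3 genes, also chosen after seeing the data. These last changes follow from the fewer genes counted. The number of arrays limits the precision.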
